A study of Danio rerio with 6 samples.

Results

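The 10 genes described here encode histones that differ from the bulk histones made for DNA replication, and were taken from a fixed list of gene symbols: 3 linker histone genes (*h1m*, *h1f0* and *h1fx*), 5 genes of H2A variants (*h2afx*, *h2afva*, *h2afvb*, *h2afy* and *h2afy2*) and 2 genes of the H3.3 variant (*h3f3a* and *h3f3c*). All 10 were found among the 30111 genes of the deposited table. RNA was sequenced from whole wild-type AB zebrafish embryos, with no transgene, mutation or treatment in any group. Embryos were taken at 10 hours post-fertilization (hpf, stage T1), at 24 hpf (T2) and at 36 hpf (T3), and each stage has 2 libraries. Per the study's methods, the embryos of a stage were freed of the chorion and split at random into 2 pools, so replicates are pools of one collection and p-values measure only how far these libraries spread, which may be technical. The question put to these genes was how their levels differ between the 3 stages.

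Nucleosomes wrap DNA around histones H2A, H2B, H3 and H4, and a linker histone of the H1 family binds where DNA enters and leaves. Bulk histones are made in S phase, whereas replacement variants are made and deposited outside replication as well. In animals with a large egg, the first nuclei carry a maternal linker histone, which somatic H1 proteins replace as the embryo develops. H2A.Z sits at promoters, and in early zebrafish embryos it marks DNA that stays free of methylation. H2A.X is phosphorylated next to DNA breaks. MacroH2A, which carries a large extra domain, is best known in mammals from silent chromatin. H3.3 is placed in active genes by HIRA, and at repeats by DAXX and ATRX.

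Levels are RPKM, reads in a gene scaled by its exon length and by the reads of the library, so that genes of different length can be set side by side. The libraries held 43611332 to 51846237 reads in genes. Genes outside the authors' table of long noncoding RNAs (lncRNAs) are called mRNAs here, with no other filter on gene type. Among all mRNAs, the log2 values of the T1 libraries differed from each other with an SD of 0.43, against 0.21 at T2 and 0.18 at T3. The stage labels were checked with markers. All 10 measured genes of differentiated muscle, blood and neurons were higher at T2 than at T1, and 10 of 11 gastrula genes were lower (*evx1* was higher). Of the T1 and T2 libraries, *gsc*, a gastrula gene, reached 0.1 RPKM only in those of T1. The test asked this level of at least 2 libraries, so a lower value of *gsc* at T2 was in part fixed. Without it 9 of 10 were lower. All of these genes passed an adjusted p under 0.05 and 2-fold, as did 12.8% of all mRNAs upward and 3.45% downward. By the same thresholds 8 of the 10 genes of differentiated cells were higher and 0 lower at T3 than at T2. Of the 11 gastrula genes 6 were lower and 0 higher, where 4.03% of all mRNAs were higher and 2.11% lower. In that comparison 3 gastrula genes reached the level asked through 1 stage, and 5 of the other 8 were lower. The T1 libraries also differed in these lists. The gastrula genes summed to 295 RPKM in T1 replicate 1 and 435 RPKM in replicate 2, and those of differentiated cells to 61.4 and 34.6 RPKM. The part of this difference in the results below was not tested.

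**Figure D1:**
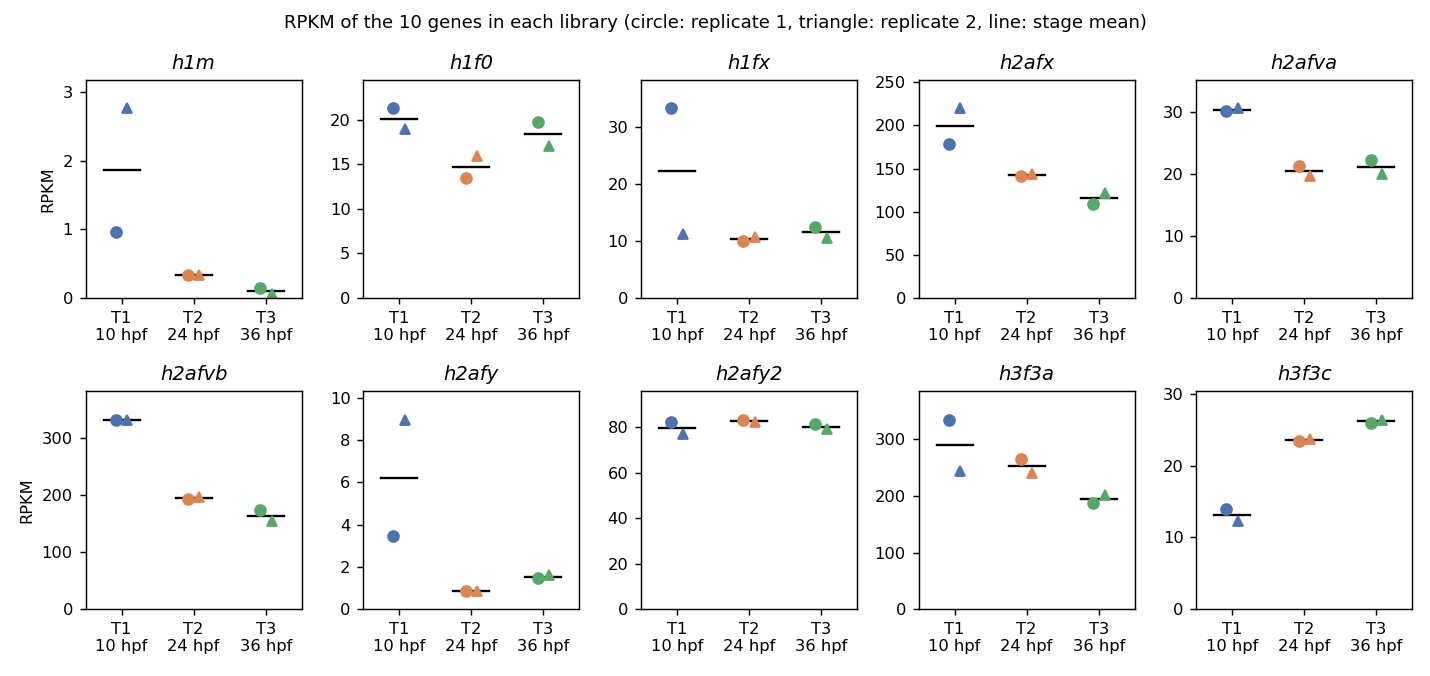
RPKM of each of the 10 genes by stage, on a linear axis that starts at 0 and is scaled to each gene. Circles are replicate 1, triangles replicate 2 and lines the stage mean; *h1m*, *h1fx* and *h2afy* show the T1 libraries far apart, and *h2afy2* stays between 77.1 and 83.4 RPKM in all 6 libraries.

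The 10 genes spanned a wide range. At T1 their mean levels ran from *h2afvb* (332 RPKM) over *h3f3a* (290), *h2afx* (199), *h2afy2* (79.8), *h2afva* (30.3), *h1fx* (22.2), *h1f0* (20.1), *h3f3c* (13.1) and *h2afy* (6.21) to *h1m* (1.86 RPKM). In that order *h2afvb* and *h3f3a*, *h2afva* and *h1fx*, and *h1fx* and *h1f0* overlapped in their libraries' values. At T2 and at T3 the order was *h3f3a*, *h2afvb*, *h2afx*, *h2afy2*, *h3f3c*, *h2afva*, *h1f0*, *h1fx*, *h2afy* and *h1m*, and no neighbours overlapped.

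Fold changes are differences of log2(RPKM + 0.5) with their standard error, and p-values come from limma with Benjamini-Hochberg adjustment over all mRNAs tested. A gene is said to have risen or fallen where its adjusted p was under 0.05 and its change over 2-fold, and a change that passed the adjusted p alone is named as such. The pseudocount of 0.5 makes the changes of low genes look smaller than they are.

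The maternal linker histone *h1m*, known in zebrafish from the egg and the germ cells, was the lowest of the 10 at every stage and fell at T2 and at T3 against T1. The gene has 5 exons on the minus strand at chr5:68327148-68332660 (GRCz11, as are all positions here). Its level was 0.961 and 2.76 RPKM at T1, 0.336 and 0.341 RPKM at T2, and 0.152 and 0.0578 RPKM at T3. These values rest on 56 and 167 reads at T1, 22 and 22 reads at T2, and 10 and 4 reads at T3, and the lowest of them has an exact 95% Poisson interval of 0.0157 to 0.148 RPKM, which covers counting error only. The T1 libraries stood above all others but lay far apart. The log2 fold change was -1.38 at T2 against T1 (SE 0.40, adjusted p = 0.0481), -0.48 at T3 against T2 (SE 0.11, adjusted p = 0.0169, under 2-fold) and -1.86 at T3 against T1 (SE 0.40, adjusted p = 0.0172). The means differed 17.8-fold between T3 and T1. Between T3 and T2 they differed 3.24-fold, on few reads, and the change was under 2-fold only with the pseudocount added. Only 1 of the T3 libraries reached the 0.1 RPKM asked of at least 2 libraries. *h1m* thus entered the comparison of T3 with T1 through T1, and that of T3 with T2 through T2.

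Without T1 replicate 2 the T2 change of *h1m* was -0.80, under 2-fold. Without T2 replicate 1 or without T2 replicate 2 it was -1.38 and did not pass the adjusted p. The adjusted p was under 0.05 in 7 of 13 alternative settings, leaving out libraries included. Those 7 include the fit without T1 replicate 2, so the fall past 2-fold was kept in fewer than 7. At T3 against T1 the adjusted p was 0.0597 without T3 replicate 2, the highest of 13 alternatives (lowest 2.06e-05). A list of 20 maternal and germ plasm genes summed to 11.4 and 20.8 RPKM at T1, 6.53 and 6.95 RPKM at T2, and 3.47 and 3.87 RPKM at T3. At T1, 4 of the 20 were higher in replicate 1 than in replicate 2, the library in which *h1m* was high, and *btg4* was at 0 in replicate 1 and at both later stages. The share of all mRNAs higher in replicate 1 was not taken. Most of the 20 were low, with 4 and 5 of them above 1 RPKM in the T1 libraries. Whether this difference between pools takes part in the *h1m* values was not tested. In whole embryos, fewer cells of a type and less RNA per cell cannot be told apart.

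The somatic linker histones *h1f0* and *h1fx* did not pass the test in any comparison. *h1f0* encodes H1.0, which in mammals accumulates in cells that stop dividing, and is a single exon at chr24:37567029-37568359. It was at 21.3 and 18.9 RPKM at T1, 13.5 and 16.0 RPKM at T2, and 19.7 and 17.1 RPKM at T3, so that both T2 libraries lay below those of the other stages. The difference was -0.44 at T2 against T1 (SE 0.14, adjusted p = 0.0578), 0.32 at T3 against T2 (SE 0.11, adjusted p = 0.0504) and -0.13 at T3 against T1 (SE 0.13, adjusted p = 0.450). The first 2 lay near the threshold and turned on the scaling. With each library centred on its median they were -0.78 and 0.30 (limma, adjusted p = 0.00900 and 0.0649). With quantile normalization they were -0.44 and 0.40 (adjusted p = 0.0576 and 0.0304), all under 2-fold.

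*h1fx*, which encodes H1X and is a single exon at chr6:40770286-40771597, turned on 1 library. It was at 33.3 and 11.2 RPKM at T1, 9.96 and 10.7 RPKM at T2, and 12.4 and 10.6 RPKM at T3. T1 replicate 1 stood far above every other library, and T1 replicate 2 lay among the later ones. Its log2 fold change was -0.88 at T2 against T1 (SE 0.50, adjusted p = 0.220) and 0.15 at T3 against T2 (SE 0.09, adjusted p = 0.240). At T3 against T1 it was -0.73 (SE 0.51, adjusted p = 0.284). With T1 replicate 1 alone as the T1 sample the changes were -1.64 at T2 and -1.49 at T3 (adjusted p = 2.11e-05 and 5.77e-05, the lowest of 14 alternatives each, with 0.474 and 0.788 the highest). With T1 replicate 2 alone the values were -0.11 and 0.04.

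**Figure D2:**
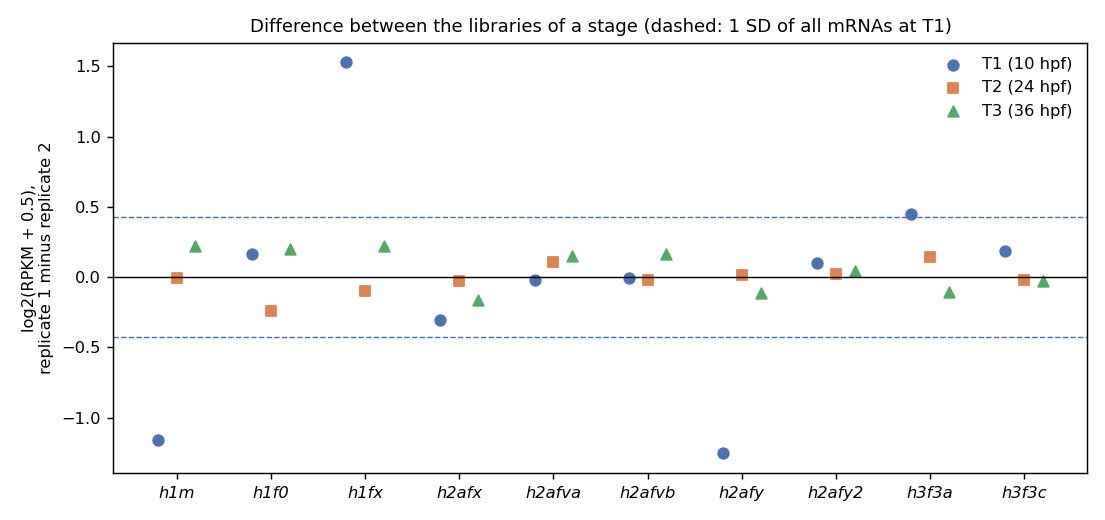
Difference in log2(RPKM + 0.5) between replicate 1 and replicate 2 of each stage for the 10 genes, with dashed lines at 1 SD of all mRNAs at T1 (0.43). At T1 *h1fx* lies at 1.53, *h2afy* at -1.26 and *h1m* at -1.16, while the differences at T2 and T3 lie between -0.24 and 0.22.

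The 3 genes with the widest gap between the T1 pools pointed in opposite directions. *h1fx* was 1.53 higher on the log2 scale in replicate 1, and 0.667% of 19952 mRNAs were further apart. *h2afy* (-1.26) and *h1m* (-1.16) were higher in replicate 2, with 1.57% and 2.21% of mRNAs further apart. *h3f3a* differed by 0.45 (23.1% further apart) and *h2afx* by -0.30 (39.1%), and the H2A.Z genes by -0.02 and -0.00.

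*h2afx* encodes H2A.X, the variant that ATM, ATR and DNA-PK phosphorylate at breaks. It is a single exon of 617 bases at chr5:30534702-30535318. It measured 178 and 220 RPKM at T1, 141 and 144 RPKM at T2, and 109 and 122 RPKM at T3, with no overlap between stages. Each step passed the adjusted p and stayed under 2-fold. The log2 fold change was -0.47 at T2 against T1 (SE 0.13, adjusted p = 0.0463), -0.30 at T3 against T2 (SE 0.07, adjusted p = 0.0174) and -0.77 at T3 against T1 (SE 0.15, adjusted p = 0.0118). Over 14 alternatives the adjusted p stayed under 0.05 in 9, 9 and 13.

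In the list named for H2A.X kinases and readers, which also holds *chek1* and *chek2*, 12 of 13 listed genes were found. With limma 0 of 12 rose or fell in any comparison. Of all mRNAs 12.8% rose and 3.45% fell at T2 against T1, and 4.03% and 2.11% at T3 against T2. At T3 against T1, 17.2% rose and 8.76% fell. At T2 against T1, 0 of the list passed the adjusted p alone, where 24.0% of all mRNAs were higher and 14.1% lower. At an unadjusted p under 0.05 it was 0 too, and the share of all mRNAs was not taken. By the adjusted p alone 10 were lower and 0 higher at T3 than at T2, where 25.5% and 18.0% of all mRNAs were. At T3 against T1, 7 were lower and 0 higher, against 24.6% and 29.3% of mRNAs. The medians of the list were -0.09, -0.36 and -0.48 in the order of the comparisons, against 0.08, -0.08 and 0.01 for all mRNAs.

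Both H2A.Z genes were highest at T1, and *h2afvb* held most of their summed level. *h2afvb*, with 5 exons at chr10:44984876-44994920, was at 332 and 332 RPKM at T1, 194 and 197 RPKM at T2, and 173 and 155 RPKM at T3. The T1 libraries agreed within 1 RPKM of each other, and the stages did not overlap. *h2afvb* fell at T3 against T1 (log2 fold change -1.02, SE 0.11, adjusted p = 0.00231), a 2.02-fold difference of means just past the 2-fold mark. It was lower by the adjusted p alone at T2 than at T1 (-0.76, SE 0.09, adjusted p = 0.00504) and at T3 than at T2 (-0.26, SE 0.07, adjusted p = 0.0316). Without T3 replicate 2 the T3 change against T1 was -0.93, and with quantile normalization -0.80, both under 2-fold with adjusted p of 0.0255 and 0.00411 (range over 14 alternatives 0.000211 to 0.0255). The adjusted p at T3 against T2 stayed under 0.05 in 8 of 14 alternatives.

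*h2afva*, with 5 exons at chr5:13647219-13652687, was at 30.1 and 30.5 RPKM at T1, 21.2 and 19.7 RPKM at T2, and 22.2 and 19.9 RPKM at T3. The T1 libraries lay above the others, and the T2 and T3 libraries overlapped. By the adjusted p alone it was lower at T2 than at T1 (-0.56, SE 0.10, adjusted p = 0.0154) and at T3 than at T1 (-0.51, SE 0.11, adjusted p = 0.0149), and T3 and T2 differed by 0.04 (SE 0.08, adjusted p = 0.683). *h2afva* held 8.32% and 8.41% of the summed H2A.Z level at T1, 9.86% and 9.07% of it at T2, and 11.4% and 11.4% of it at T3. The stages did not overlap, and the exact permutation test gave p = 0.33 for each pair, two-sided, the smallest that 2 against 2 libraries allow.

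Genes of the SRCAP, TIP60 and INO80 complexes, which put H2A.Z in and take it out, had medians below 0 (-0.41 at T2 against T1, -0.17 at T3 against T2 and -0.59 at T3 against T1). Of 18 found, 0 rose or fell at T2 against T1 or at T3 against T2. Of all mRNAs 12.8% rose and 3.45% fell in the first, and 4.03% and 2.11% in the second. By limma's adjusted p alone 7 and 6 of the 18 were lower, where 14.1% and 25.5% of all mRNAs were. At an unadjusted p under 0.05, 10 and 9 were lower, and the share of all mRNAs was not taken. At T3 against T1, 2 fell and 12 were lower by the adjusted p alone, where 8.76% and 24.6% of all mRNAs did so. The all-mRNA medians were those given with the H2A.X kinases. *ruvbl2*, an ATPase of these complexes, averaged 32.9 ± 1.2 RPKM at T3 and 82.3 ± 1.4 RPKM at T1 (SD, n = 2 each, log2 fold change -1.31, adjusted p = 0.000871). *ino80b*, an INO80 subunit, averaged 38.9 ± 1.7 RPKM at T3 and 90.3 ± 3.3 RPKM at T1 (-1.20, adjusted p = 0.00117). *anp32e*, the chaperone that removes H2A.Z in mammals, fell to 266 ± 10.5 RPKM at T2, against 621 ± 73.7 RPKM at T1 (-1.22, SE 0.12, adjusted p = 0.00341). It stood at 237 ± 9.04 RPKM at T3, a difference of -0.16 from T2 (adjusted p = 0.0865).

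Of the macroH2A genes, *h2afy* fell at T2 and T3 against T1, and *h2afy2* passed the test in no comparison. *h2afy*, with 10 exons at chr21:45758498-45769458, was at 3.46 and 8.96 RPKM at T1, 0.889 and 0.877 RPKM at T2, and 1.47 and 1.63 RPKM at T3. T2 was the lowest stage and T1 the highest, without overlap, and the T1 libraries were far apart. *h2afy* fell by 2.15 on the log2 scale at T2 against T1 (SE 0.42, adjusted p = 0.0180), a 7.04-fold difference of means. At T3 it was higher than at T2 by the adjusted p alone (0.56, SE 0.11, adjusted p = 0.00740) and had fallen by 1.58 against T1 (SE 0.43, adjusted p = 0.0323).

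The size of the *h2afy* change turned on the T1 pool. Without T1 replicate 2 it was -0.96 at T3 against T1, under 2-fold. Without either T2 library the adjusted p at T2 against T1 was 0.0637 or 0.0704, and without either T3 library that at T3 against T1 was 0.0965 or 0.0853. Over 14 alternatives the adjusted p ran from 8.30e-06 to 0.0704 at T2 against T1 and from 7.82e-06 to 0.0965 at T3 against T1.

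*h2afy2*, with 11 exons at chr13:7753049-7767594, was the flattest of the 10. It was at 82.5 and 77.1 RPKM at T1, 83.4 and 82.2 RPKM at T2, and 81.6 and 79.2 RPKM at T3. The T1 libraries spanned much of this narrow range. The log2 difference was 0.05 at T2 against T1 (SE 0.10, adjusted p = 0.696), -0.04 at T3 against T2 (SE 0.06, adjusted p = 0.578) and 0.01 at T3 against T1 (SE 0.10, adjusted p = 0.938). Centring each library on its median turned the first and the last to -0.28 and -0.34, with an adjusted p of 0.0728 and 0.0427 (highest over 14 alternatives 0.953 and 0.977). Since *h2afy2* made up most of it, the summed macroH2A level stayed between 80.8 and 86.1 RPKM. *h2afy* held 4.03% and 10.4% of that sum at T1, 1.05% and 1.06% of it at T2, and 1.77% and 2.01% of it at T3 (exact permutation test, two-sided p = 0.33 for each pair).

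The H3.3 genes *h3f3a* and *h3f3c* encode the same replacement variant and differed in the direction of what passed the adjusted p. *h3f3a*, with 4 exons at chr3:45776370-45778122, was at 335 and 245 RPKM at T1, 266 and 240 RPKM at T2, and 187 and 201 RPKM at T3. T1 and T2 overlapped, and both T3 libraries lay below them. At T3 it was lower than at T2 by the adjusted p alone (-0.38, SE 0.08, adjusted p = 0.00856). With quantile normalization this change was -0.20 (adjusted p = 0.104), and its adjusted p stayed under 0.05 in 11 of 14 alternatives. The log2 difference of *h3f3a* was -0.18 at T2 against T1 (SE 0.18, adjusted p = 0.458) and -0.56 at T3 against T1 (SE 0.18, adjusted p = 0.0520). The first was 0.05 without T1 replicate 1, and -0.51 after median centring (adjusted p = 0.0349).

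*h3f3c* was the 1 gene of the 10 that passed the adjusted p as higher at both later stages than at T1. It was at 14.0 and 12.2 RPKM at T1, 23.4 and 23.7 RPKM at T2, and 25.9 and 26.4 RPKM at T3, with no overlap between stages and close replicates. At T2 it was higher than at T1 by the adjusted p alone (0.82, SE 0.12, adjusted p = 0.00760) and at T3 than at T1 (0.97, SE 0.11, adjusted p = 0.00274), where the means differed 2.00-fold. T3 and T2 differed by 0.15 (SE 0.06, adjusted p = 0.0778). At T3 against T1 it passed 2-fold with quantile normalization (1.07) and without T1 replicate 1 (1.07). After median centring the T2 change against T1 was smaller, at 0.49 (adjusted p = 0.0200). The adjusted p stayed under 0.05 in 13 of 15 alternatives at T2 against T1 and in 15 of 15 at T3 against T1.

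The table gives *h3f3c* at 2 places, chr5:36945262-36949476 and bases 194513 to 198749 of an unplaced scaffold, with 4 exons and 1708 bases each, and divides by the summed length of 3416 bases. Reads that match both copies may have been lost or split, and its level is uncertain. Dividing by the length of 1 copy, an alternative chosen after seeing the data, left the log2 fold changes at 0.84 at T2 against T1, 0.15 at T3 against T2 and 0.99 at T3 against T1.

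**Figure D3:**
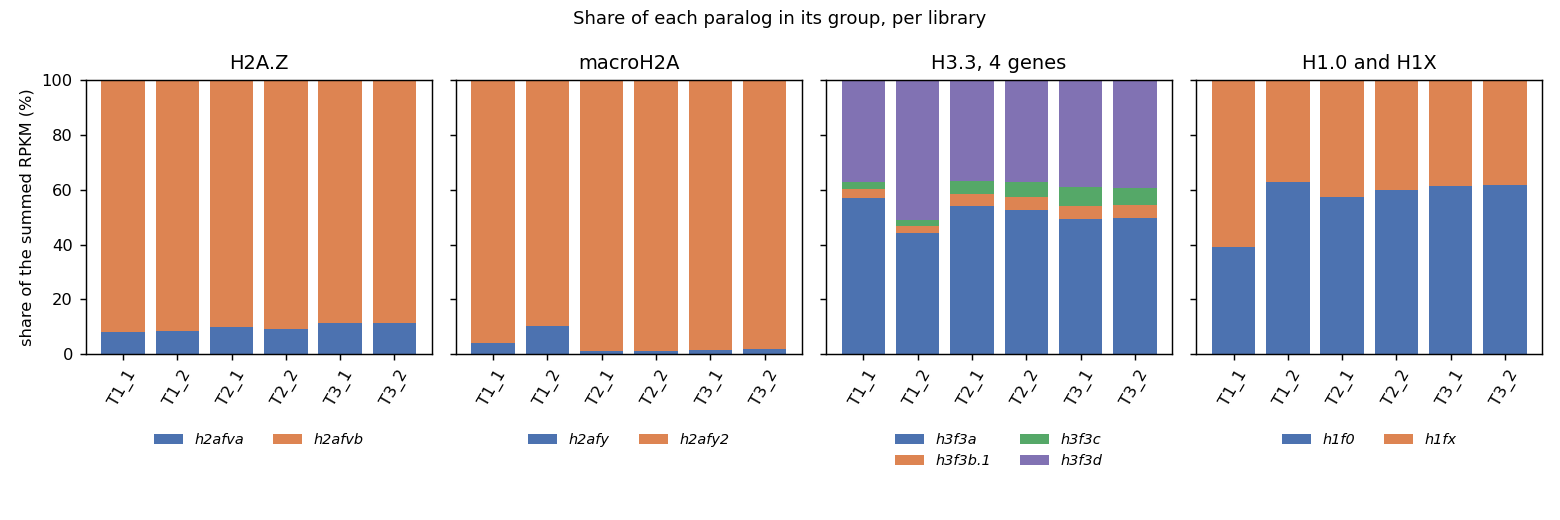
Share of each gene in the summed RPKM of its group (percent, stacked to 100) in each library, named by stage and replicate. *h2afvb* and *h2afy2* hold most of their pairs in all 6 libraries, *h3f3a* and *h3f3d* hold most of the H3.3 level, and *h1f0* moves between 39.0% and 62.9% of its pair within T1.

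Within the pair, *h3f3c* held 4.01% and 4.77% of the summed level at T1, 8.10% and 8.98% of it at T2, and 12.2% and 11.6% of it at T3. The stages did not overlap (exact permutation test, two-sided p = 0.33 for each pair). Adding *h3f3b.1* and *h3f3d*, the other H3.3 genes in the table, gave sums of 587 and 555 RPKM at T1, 492 and 455 RPKM at T2, and 378 and 404 RPKM at T3. *h3f3d* held 37.4% and 50.9% of this sum at T1 and 37.0% to 39.3% at the later stages, and *h3f3c* 2.38% and 2.20% at T1 and 6.86% and 6.53% at T3. With the length of 1 copy the *h3f3c* share was 4.65% and 4.31% at T1 and 12.8% and 12.3% at T3.

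Counted together, 0 of the 10 rose and 2 fell (*h1m* and *h2afy*) at T2 against T1, where 12.8% of 23028 mRNAs rose and 3.45% fell. By the adjusted p alone 1 was higher and 5 were lower, against 24.0% and 14.1% of mRNAs. The median of the 10 was -0.51 against 0.08 for all mRNAs, and 8 of 10 had a log2 fold change below 0 against 44.4% of mRNAs. At an unadjusted p under 0.05, 1 was higher and 6 were lower. For this and every later count at an unadjusted p, the share of all mRNAs was not taken, so these counts stand without a background.

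At T3 against T2, 0 rose and 0 fell with limma, against 4.03% and 2.11% of 23161 mRNAs. By the adjusted p alone 1 was higher (*h2afy*) and 4 were lower (*h3f3a*, *h2afx*, *h1m* and *h2afvb*), against 18.0% and 25.5% of mRNAs, and at an unadjusted p under 0.05 3 were higher and 4 lower. The median was -0.00 for the 10, 0.04 without *h1m*, and -0.08 for all mRNAs. Without *h1m*, 1 of the other 9 genes was higher and 3 were lower by the adjusted p alone. With a pseudocount of 0.1 in place of 0.5, *h1m* fell by 1.14 (adjusted p = 0.0224, range over 13 alternatives 0.0163 to 0.379), having entered this comparison through T2.

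At T3 against T1, 0 rose and 3 fell (*h1m*, *h2afvb* and *h2afy*), against 17.2% and 8.76% of 23133 mRNAs. By the adjusted p alone 1 was higher and 5 were lower, against 29.3% and 24.6% of mRNAs, and at an unadjusted p under 0.05 1 was higher and 6 lower. The median was -0.65 for the 10, -0.56 without *h1m*, which passed the filter through T1, and 0.01 for all mRNAs. Without *h1m*, 2 of the other 9 genes fell, and by the adjusted p alone 1 was higher and 4 were lower. The comparisons share their libraries, and none of these counts is a test of the list.

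**Figure D4:**
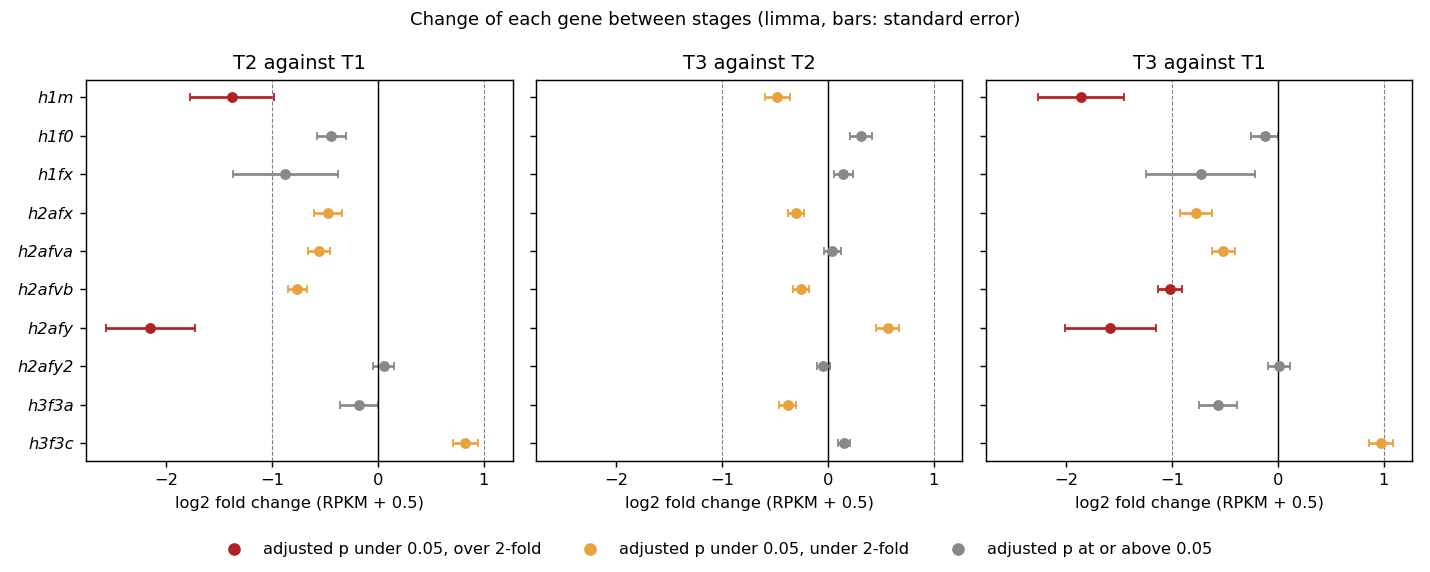
Log2 fold change of each of the 10 genes in RPKM + 0.5 with its standard error, in the 3 comparisons, with dashed lines at 2-fold. Red marks an adjusted p under 0.05 and over 2-fold (2, 0 and 3 genes, all lower), orange an adjusted p under 0.05 within 2-fold, and grey the rest. Of the 3, *h1m* passed the filter on low values through T1.

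Scaling between libraries moved these values. Centring on the median shifted the median of all mRNAs by -0.33 at T2 against T1 and by -0.35 at T3 against T1, and quantile normalization by -0.21 and -0.20. Of mRNAs that rose or fell at T2 against T1, 78.8% rose as deposited, 48.8% after median centring and 59.8% after quantile normalization. These shares were 66.2%, 40.8% and 51.9% at T3 against T1. After median centring *h2afvb* also fell at T2 against T1 (-1.095), and *h2afx* fell at T3 against T1 (-1.125). Under both scalings the other genes kept their sign in the 3 comparisons, whereas that of *h2afy2* turned. The median of the 10 was -0.85 with median centring and -0.48 with quantile normalization at T2 against T1, beside -0.25 and -0.13 for all mRNAs. It was -0.997 and -0.43 at T3 against T1, beside -0.34 and -0.18, and -0.01 and 0.14 at T3 against T2, beside -0.09 and -0.05.

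The medians of the lists of histone chaperones, H2A.Z exchange, H2A.X kinases, 3′ end processing and cell cycle genes were below 0 in the 3 comparisons, as deposited and with both scalings. With both scalings the median of all mRNAs was below 0 in the 3 comparisons too. With quantile normalization the chaperone median at T2 against T1 was -0.14, beside -0.13 for all mRNAs. That of H2A.Z exchange at T3 against T2 was -0.07, beside -0.05. Histone chaperones carry histones to and from DNA, with list medians of -0.16 at T2 against T1, -0.24 at T3 against T2 and -0.53 at T3 against T1. Of 33 tested, 1 rose and 3 fell at T2 against T1, 0 rose and 2 fell at T3 against T2, and 2 rose and 5 fell at T3 against T1. Over all mRNAs 12.8% rose and 3.45% fell in the first, 4.03% and 2.11% in the second, and 17.2% and 8.76% in the last. *npm2b*, a nucleoplasmin of the egg, averaged 32.0 ± 11.9 RPKM at T1, 5.32 ± 0.53 RPKM at T2 and 1.37 ± 0.19 RPKM at T3 (SD, n = 2 each). It fell both at T2 against T1 (-2.43, adjusted p = 0.00431) and at T3 against T2 (-1.64, adjusted p = 0.000187). *npm1a*, nucleophosmin of the nucleolus, averaged 926 ± 170 RPKM at T1, 358 ± 52.3 RPKM at T2 and 147 ± 0.64 RPKM at T3, and fell by 2.64 at T3 against T1 (adjusted p = 0.000557).

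The other chaperone genes that fell at T3 against T1 were *npm3* (-1.46), *anp32e* (-1.38) and *setb* (-1.21), the last named after its values were seen. *ssrp1b*, a FACT subunit, and *nap1l4b*, an H2A-H2B chaperone, went the other way. *ssrp1b* averaged 3.28 ± 0.18 RPKM at T3 and 0.528 ± 0.025 RPKM at T1 (log2 fold change 1.88, adjusted p = 0.000813). *nap1l4b* averaged 17.7 ± 0.18 RPKM at T3 and 7.65 ± 1.3 RPKM at T1 (1.17, adjusted p = 0.00329). The H3.3 chaperone *hira* differed by 0.09 at T2 against T1 and -0.08 at T3 against T1 (adjusted p = 0.508 and 0.515). *daxx* was lower than at T1 by the adjusted p alone, both at T2 (-0.49, adjusted p = 0.0269) and at T3 (-0.63, adjusted p = 0.0118). *atrx* differed from T1 by -0.16 at T2 and 0.03 at T3 (adjusted p = 0.258 and 0.844).

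**Figure D5:**
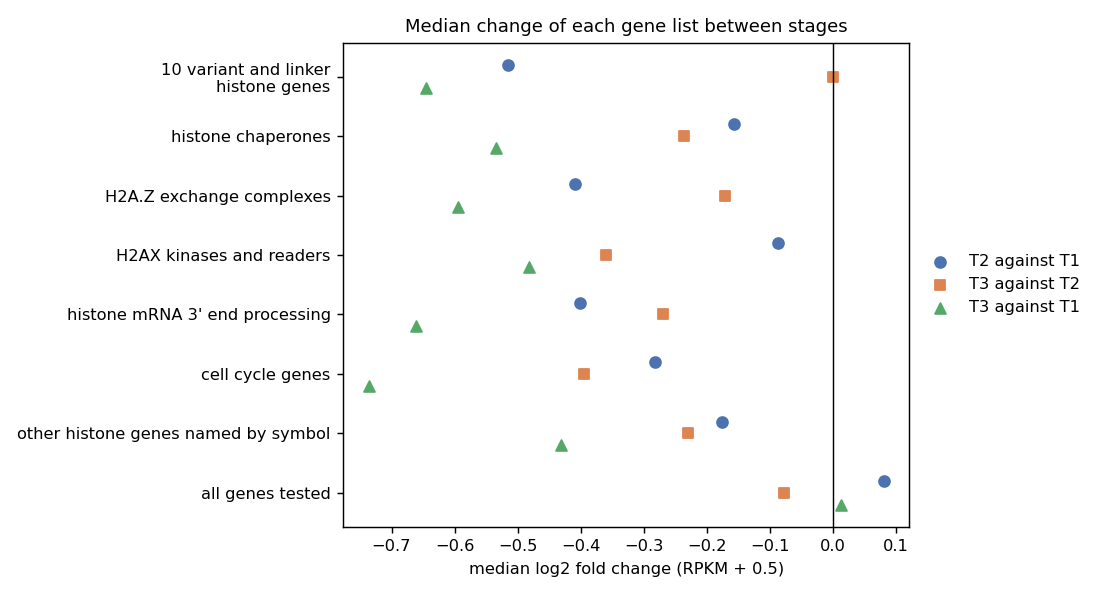
Median log2 fold change in RPKM + 0.5 of the 10 genes, of each related gene list other than the maternal and germ plasm genes, and of all mRNAs tested, in the 3 comparisons. The medians of the lists at T3 against T1 run from -0.74 to -0.43, that of the 10 genes is -0.65 and that of all mRNAs 0.01.

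In the list named for 3′ end processing of replication histone mRNAs, which also holds *npat* and *cpsf4*, 12 genes were found and 11 tested. *slbp2* did not pass the filter on low values. All 11 had a log2 fold change below 0 at T3 against T1, 9 of them with an adjusted p under 0.05. Of all mRNAs 49.3% lay below 0 there, and 24.6% were lower by the adjusted p alone. The list had medians of -0.40 at T2 against T1, -0.27 at T3 against T2 and -0.66 at T3 against T1. *lsm10*, of the U7 particle, averaged 28.2 ± 3.7 RPKM at T1, 8.87 ± 1.7 RPKM at T2 and 4.66 ± 0.72 RPKM at T3, and fell at T2 against T1 (-1.62, adjusted p = 0.00405) and at T3 against T1 (-2.48, adjusted p = 0.000664). *coil*, which encodes coilin of the Cajal body, fell by 1.38 at T3 against T1 (adjusted p = 0.00449). With limma 0 of this list rose or fell at T3 against T2, where 4.03% of all mRNAs rose and 2.11% fell. By the adjusted p alone 6 were lower there (25.5% of all mRNAs).

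Among 16 cell cycle genes the medians were -0.28, -0.39 and -0.74 in the same order. *ccne1*, cyclin E of S phase entry, fell by 1.41 at T2 against T1 (adjusted p = 0.00330), and at T3 against T1 it fell together with the replication helicase genes *mcm3* (-1.43), *mcm7* (-1.16) and *mcm6* (-1.12). These 4 were all of the 16 that fell at T3 against T1, and 11 were lower by the adjusted p alone, against 8.76% and 24.6% of all mRNAs. *tyms*, thymidylate synthase, named after its values were seen, was the 1 that was higher by the adjusted p alone at T2 (0.53, adjusted p = 0.0361) and at T3 (0.43, adjusted p = 0.0453) than at T1, and *top2a*, a topoisomerase gene named likewise, differed by 0.00 at T3 against T1 (adjusted p = 0.978).

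Of the maternal and germ plasm genes that reached 0.1 RPKM in all 6 libraries, *nanos3* and *ddx4* fell. *nanos3*, a germ cell gene of RNA control, was at 1.06 and 1.81 RPKM at T1, 0.437 and 0.443 RPKM at T2, and 0.108 and 0.172 RPKM at T3, and fell at T2 against T1 (-1.02, adjusted p = 0.0273) and at T3 against T1 (-1.57, adjusted p = 0.00511). *ddx4*, the germ plasm helicase Vasa, was at 2.75 and 6.35 RPKM at T1, 1.21 and 1.79 RPKM at T2, and 0.531 and 0.665 RPKM at T3, and fell at T3 against T1 (-2.11, adjusted p = 0.00960). *tdrd7a*, *org* and *zp2.1*, the last an egg coat gene named after its values were seen, were also called lower at T3 than at T1, and *tdrd7a* and *org* at T2 than at T1, but they passed the filter on low values in those comparisons through T1, so that a lower value at the later stage was in part fixed by the filter. Since 6 of 17 tested genes at T2 against T1 and 8 of 17 at T3 against T1 passed that filter through 1 stage, no count or median is given for the whole list. Of the other 11 and 9 genes, 1 and 2 fell and 0 rose, where 3.45% and 8.76% of all mRNAs fell and 12.8% and 17.2% rose. By the adjusted p alone 1 and 5 of them were lower and 0 higher. Of all mRNAs 14.1% and 24.6% were lower by it, and 24.0% and 29.3% higher. *zar1*, *gra* and *cldnd*, at 0.1 RPKM or more in all 6 libraries, did not pass the adjusted p against T1 at T2 or T3.

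For genes whose stage means spanned over 2-fold, and for *h1m*, the mRNAs with the most similar course over the 6 libraries were found by Euclidean distance between centred log2 values, a description that selects for likeness. Nearest to *h2afvb* among 15444 mRNAs were *khnyn* (distance 0.0794), *ch211-13c6.2* (0.0975) and *alg2* (0.104). *khnyn* was at 11.9 and 12.4 RPKM at T1, 7.11 and 6.83 RPKM at T2, and 5.94 and 5.26 RPKM at T3. Nearest to *h2afy* were *ch73-287m6.1* (0.284), *dkey-234i14.2* (0.504) and *gata3*, a transcription factor gene (0.506), and those 3 too were higher in T1 replicate 2. Nearest to *h1m* were *ppp1r3ca* (0.322), *crhr2* (0.326) and *LOC103908810* (0.356), at 1.58 to 3.63 RPKM in T1 replicate 1 and 4.28 to 6.56 RPKM in T1 replicate 2.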

How the data were processed

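RNA depleted of ribosomal RNA, from 6 pools of embryos, was sequenced from a stranded kit. The RPKM values were deposited by the authors, who per the study's methods and the submitters' processing notes aligned reads to GRCz11 with STAR 2.5.3a and counted them per gene with featureCounts (Subread 1.5.1). The authors compared stages with edgeR 3.12.1 and used KOBAS 2.1.1 for enrichment. Use of the strand in counting and the treatment of reads with several matches are not given in the sources used here. No exon of the 10 genes overlaps an exon of another gene or assembled transcript of the tables (0 genes).

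Multiplied by exon length and library size, 100.0% of values came out as whole reads (tolerance 0.01 read), from which reads and exact 95% Poisson intervals were taken. For a gene of 1 kb, 3 reads correspond to 0.0579 to 0.0688 RPKM. Every column was matched to a sample (0 left over). Genes of the lncRNA table were left out of the tests (3093 genes), and 27018 remained. These are called mRNAs here, but were not filtered by gene type, so that other noncoding genes may be among them. For each pair of stages log2(RPKM + 0.5) was fitted with stage as the only term in limma 3.58.1 (R 4.3.3, lmFit, contrasts.fit, eBayes with trend and robust, statmod 1.5.0), on mRNAs with at least 0.1 RPKM in at least 2 of the 4 libraries. The RPKM values were fitted as deposited, and a count model on the recovered reads was not run. Shares were compared with an exact permutation test. Python 3.11.15 with numpy 2.4.6, pandas 2.3.3, scipy 1.17.1 and matplotlib 3.10.9 did the rest.

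The 10 genes and the lists (histone chaperones, H2A.Z exchange complexes, H2A.X kinases and readers, histone mRNA 3′ end processing, maternal and germ plasm, cell cycle, other histone genes and stage markers) were chosen with earlier results of these data known. From a list were named up to 4 genes that rose or fell with the largest change, and those that went against the list. Genes named outside this rule include *hira*, *daxx*, *atrx*, *gsc*, *btg4*, *zar1*, *gra*, *cldnd*, *cenpa*, *h3f3b.1*, *h3f3d* and *hist2h2l*, besides those marked as named after their values were seen. Their choice may have followed their values. The alternatives were other pseudocounts, filters, scalings and gene sets, all 6 libraries in 1 fit, no trend or robust option, a replicate block and each library left out. Replicate numbers do not pair the libraries: the deviations of same-numbered libraries from their stage means correlated at 0.01, -0.07 and -0.05 over 11894 genes.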

Additional observations from a re-analysis of the deposited data

How the results depend on the processing

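Of the alternatives to the 30 changes of single genes, 389 kept direction and side of the threshold, 15 lost the call, 7 gained it and 9 changed sign. Most of the 30 changes were not called, and most of the 389 are changes that stayed uncalled. The 15 losses could arise only among the changes called (2, 0 and 3 in the comparisons), which had 13 or 14 alternatives each. Counting the adjusted p alone, 6, 5 and 6 of the 10 genes and 8761, 10073 and 12478 mRNAs passed at T2 against T1, at T3 against T2 and at T3 against T1, against 2, 0 and 3 genes and 3748, 1421 and 5994 mRNAs past 2-fold too. At T2 against T1, 1 of the 10 passed with a pseudocount of 1, with no filter, with a filter at 1 RPKM, without trend and robust, and with all genes of the table. In each *h1m* was lost, in the third because it was not tested and in the others with an adjusted p of 0.0580, 0.0614, 0.0513 and 0.0537. At T3 against T2, 1 gene and 2818 mRNAs passed with a pseudocount of 0.1, and 932 mRNAs with 1. Leaving out 1 library gave 0 to 2, 0 to 0 and 0 to 4 genes and 2248 to 4556, 1275 to 1650 and 4830 to 6593 mRNAs. The 0 at T3 against T1 came without T3 replicate 2. The signs that changed were those of *h2afy2* (-0.28 at T2 against T1 and -0.34 at T3 against T1 after median centring, 0.13 at T3 against T2 after quantile normalization, -0.011 and -0.038 at T3 against T1 without T3 replicate 1 and T1 replicate 2, where leaving out 1 library gave -0.038 to 0.059), *h3f3a* at T2 against T1 without T1 replicate 1 (-0.405 to 0.045), *h2afva* at T3 against T2 without T3 replicate 1 or T2 replicate 2 (-0.034 to 0.12), and *h1fx* at T3 against T1 without T1 replicate 1 (-1.494 to 0.036). Why was not tested, beyond what leaving out a library shows. With the replicate number as a block, 2, 0 and 3 genes and 3868, 1426 and 6088 mRNAs passed, and the block changed no call among the 10 genes.

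With 2 libraries a stage, a fit without 1 of them assumes that the lone library varies like the others. Pools of one collection give no spread between clutches. *h1m* rests on 4 to 167 reads a library. Stage medians depend on the scaling, and *h3f3c* on how reads of its copies were counted.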

Other observations

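Outside the 10 genes, 8 more histone genes matched the symbols searched for, which do not cover every histone gene of the table. With limma 0 of these 8 rose or fell in any comparison. Of all mRNAs 12.8% rose and 3.45% fell at T2 against T1, and 4.03% and 2.11% at T3 against T2. At T3 against T1, 17.2% rose and 8.76% fell. By the adjusted p alone 0 of the 8 passed at T2 against T1, where 24.0% of all mRNAs were higher and 14.1% lower. At an unadjusted p under 0.05, 1 was lower there, and the share of all mRNAs was not taken. By the adjusted p alone 1 was higher and 4 were lower at T3 than at T2 (18.0% and 25.5% of all mRNAs). At T3 against T1, 1 was higher and 2 were lower (29.3% and 24.6%). *cenpa*, the H3 variant of centromeres, was at 40.7 and 36.1 RPKM at T1, 34.7 and 33.5 RPKM at T2, and 22.7 and 21.2 RPKM at T3, and was lower at T3 than at T2 by the adjusted p alone (log2 fold change -0.62, adjusted p = 0.000690). *h3f3d* was lower at T3 than at T1 (-0.70, adjusted p = 0.0187). *hist2h2l* was the 1 that was higher, at 5.40 and 5.30 RPKM at T3 and 1.81 and 3.28 RPKM at T1 (0.99, adjusted p = 0.0303).

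The 8 genes summed to 861 and 1251 RPKM at T1, 863 and 860 RPKM at T2, and 762 and 678 RPKM at T3. At T1, 2 of the 8 were higher in replicate 1, a count for which the share over all mRNAs was not taken. A linker histone gene whose symbol the list did not cover, *histh1l*, was looked up after its values were seen. It was at 178 and 75.8 RPKM at T1, 84.3 and 89.2 RPKM at T2, and 103 and 96.1 RPKM at T3, so that T1 replicate 1 stood above the other libraries, as it did for *h1fx*.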
